A study of Danio rerio with 2 samples.

Results

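Bone formation genes were described here as 10 genes that osteoblasts, the bone-building cells, use to become specified, to lay down matrix and to mineralise it. They were sp7, runx2a, runx2b, bglap, spp1, col10a1a, sparc, entpd5a, alpl and phex. Their probes were found only through the accession that the scanner files give for each probe. Gene names and older symbols were not searched for these genes. A probe was paired with 9 of the 10 genes, out of 12900 genes named on the array, and 24 probes belonged to them. No probe was paired here with entpd5a.

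The RNA came from whole zebrafish larvae aged 10 days. The background was labelled as a cross of Wageningen wild type and Tubingen wildtype fish (Zod2), and no further allele was named. One group swam in training sessions of 3 hours on each day from day 5 to day 10 after fertilisation, and the other was the untrained control. RNA of 10 fish, 400 ng from each, was pooled per group. Both pools were set against each other on 2 two-colour Agilent arrays, with trained in Cy5 on array 1 and in Cy3 on array 2. The arrays repeat the same pools and count as 1 replicate, so the values describe these pools, and no error across fish can be given. The comparison asks whether the transcripts of bone formation differed between trained and untrained larvae.

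Runx2 is the transcription factor that commits precursor cells to the osteoblast fate, and Sp7, also called Osterix, acts with and after it. Mature osteoblasts secrete a collagen matrix with proteins such as osteocalcin (bglap), osteopontin (spp1) and osteonectin (sparc). Mineral forms when phosphate is released near the matrix by enzymes such as tissue-nonspecific alkaline phosphatase (alpl), and Phex and Entpd5 are needed for normal phosphate balance and mineralisation. Larvae of this age have begun to ossify parts of the skull and the sheath of the notochord.

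Of the 9 genes with a probe, 8 were measured, meaning that at least 1 probe was well above background in both channels of both arrays. They had 21 measured probes. The brightest measured probe stood for a gene, by the mean log intensity of both channels and both arrays after background correction. The processed signals of Feature Extraction, given below, can rank the probes otherwise, as for bglap and phex. Ratios are trained over control on the log2 scale, rebuilt from the median spot intensities, so that 0 means equal signal and 0.585 means 1.5-fold. A gene passed the size rule, used here in place of a test, when it was at least 1.5-fold different in the same direction on both arrays. None of the 8 measured genes and none of the 21 probes passed it. Over all measured genes 77 of 11121 passed, or 0.692%, of which 71 were higher and 6 lower. Over all measured probes 160 of 30886 passed, or 0.518%. The largest mean ratio of any measured probe was 0.26, for the second col10a1a probe, which is 1.2-fold higher in the trained pool, and the lowest was -0.14, for the third sparc probe. In whole larvae, fewer cells of a type and less RNA per cell cannot be told apart.

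**Figure D1:**
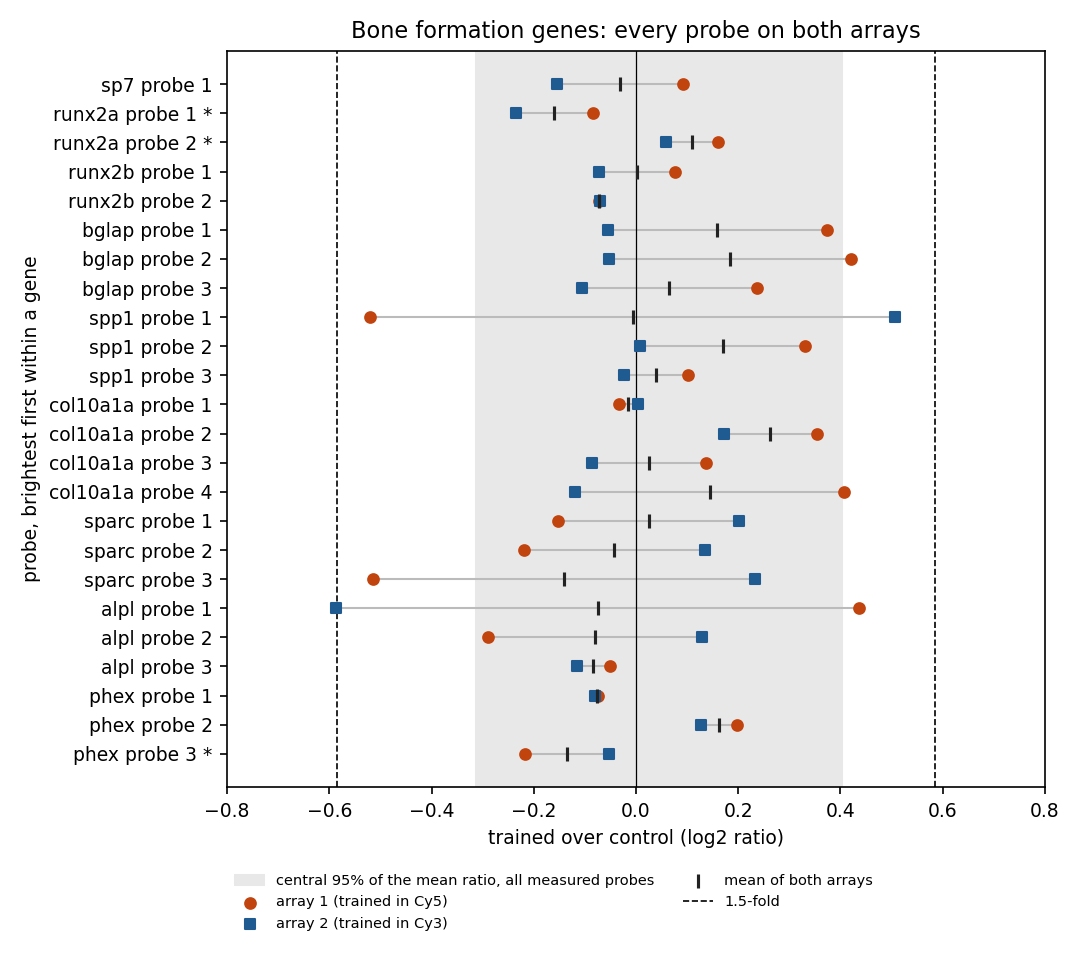
Trained over control log2 ratio of each of the 24 probes on array 1 (circles) and array 2 (squares), with the mean as a black tick and probes not measured marked by an asterisk. Dashed lines mark 1.5-fold, and the grey band holds the central 95% of the mean ratio over all measured probes, -0.31 to 0.40. All 24 means lie inside the band, and for many probes the arrays fall on opposite sides of 0.

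The regulators came first. For sp7, represented by 1 probe, the processed signal of Feature Extraction was 293 in the trained and 302 in the control pool on array 1, and 225 and 278 on array 2. The trained pool was the dimmer on both arrays on that scale. The rebuilt ratios were 0.09 and -0.15, with a mean of -0.03, so the arrays disagreed on the direction. The deposited ratios, which rest on another normalisation, were -0.05 and -0.31, with errors of 0.21 on either array.

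The runx2b gene, 1 of the zebrafish copies of Runx2, had processed signals of 125 and 126 on array 1 and of 102 and 112 on array 2, trained before control. Its brightest probe stood at 0.08 and -0.07 with a mean of 0.00, and its second probe at -0.07 on each array. The paired copy runx2a was close to the background. Of its 2 probes, 1 was well above background only in the control channel of array 1 and the other in no channel. No ratio is given for runx2a, and this says nothing on whether the gene was expressed in a few cells. Probe sequences were not used here, so cross-hybridisation between the copies was not tested.

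Among the matrix genes, bglap encodes osteocalcin, a small calcium-binding protein of mature bone. Its brightest probe had processed signals of 3463 in the trained and 2748 in the control pool on array 1. On array 2 the order was turned, with 2761 and 3156. The rebuilt ratios were 0.37 and -0.05, with a mean of 0.16. The other probes behaved alike, at 0.42 and -0.05 and at 0.24 and -0.10, so each of the 3 was higher on array 1 and lower on array 2. The direction on array 2 depended on the normalisation. With median centring in place of loess, bglap stood at 0.22 on each array.

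Osteopontin, the product of spp1, is an acidic phosphoprotein of bone matrix that is also made outside bone. Its brightest probe had processed signals of 926 and 1143 on array 1 and of 983 and 726 on array 2, trained before control. The ratios were -0.52 and 0.51, nearly equal and opposite, with a mean of -0.01. Its second probe stood at 0.33 and 0.01 and the third at 0.10 and -0.02. The arrays thus parted by about a factor of 2 on the brightest probe and much less on the other probes of the same gene.

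The col10a1a gene encodes type X collagen, which in mammals marks hypertrophic cartilage and in zebrafish is also made by osteoblasts. Its brightest probe had processed signals of 5059 and 5388 on array 1 and of 4619 and 4048 on array 2, trained before control. The rebuilt ratios were -0.03 and 0.00, with a mean of -0.01. Of its 4 probes only the second had the same direction on both arrays, at 0.35 and 0.17. The dimmer 2 stood at 0.14 and -0.09 and at 0.41 and -0.12.

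Osteonectin (sparc), a collagen-binding glycoprotein made in bone and in many other connective tissues, gave strong signals. The brightest probe had 15450 in the trained and 16817 in the control pool on array 1, and 15994 and 14091 on array 2. Its ratios were -0.15 and 0.20, with a mean of 0.02. The other 2 probes stood at -0.22 and 0.13 and at -0.51 and 0.23. All 3 probes were lower in the trained pool on array 1 and higher on array 2, the reverse of the bglap probes.

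The enzymes of mineralisation were alpl and phex. The brightest alpl probe had processed signals of 521 and 405 on array 1 and of 355 and 475 on array 2, trained before control. The ratios were 0.44 and -0.59, with a mean of -0.07. The second probe was opposite in the other sense, at -0.29 and 0.13, and the third stood at -0.05 and -0.11. The processed signals of the second probe were 437 and 475 on array 1 and 402 and 424 on array 2. On that scale the trained pool was the dimmer on both arrays, so the direction on array 2 depended on the normalisation. Although the single arrays ran from -0.59 to 0.44, the means of the 3 alpl probes were -0.07, -0.08 and -0.08.

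The phex gene encodes a membrane endopeptidase tied in humans to phosphate wasting and rickets. Its brightest probe had processed signals of 104.7 and 98.4 on array 1 and of 86.0 and 98.1 on array 2, trained before control. On that scale the trained pool was the brighter on array 1 and the dimmer on array 2. The rebuilt ratios were -0.07 and -0.08. The second phex probe stood at 0.20 and 0.13, opposite in direction to the first although each was alike on both arrays. Its processed signals were 144.6 and 115.0 on array 1 and 103.4 and 91.4 on array 2. These were above those of the first probe except in control on array 2. The third probe was not well above background in any channel. With the probes averaged, phex stood at 0.04 rather than -0.08.

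By the rebuilt ratios of their brightest probes, 7 of the 8 measured genes were opposite on the arrays and 1, phex, was lower on both. Over all measured genes 53.6% were opposite, 24.3% higher on both and 22.1% lower on both. Over the 21 probes 15 were opposite, beside 53.9% of all measured probes, while 3 were higher on both arrays, beside 22.9%, and 3 lower, beside 23.2%. The median ratio of the 8 genes was -0.01, at 0.02 on array 1 and -0.06 on array 2. That of all measured genes was 0.00, at 0.00 and 0.02.

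A ratio that changes sign between the arrays can be split into the mean ratio and a dye component. The dye component is the mean of the Cy5 over Cy3 ratios of both arrays. No orientation was repeated, so it also holds the noise of single arrays, which cannot be told apart from the dye. For the 8 genes the mean ratio ran from -0.08 to 0.16, while the dye component ran from -0.51 for spp1 to 0.51 for alpl. Over all measured genes the SD was 0.19 for the mean ratio and 0.20 for the dye component. After the sign of array 2 was turned, array 1 and array 2 correlated over the 30886 measured probes with Pearson's r at -0.04, and probes are not independent replicates. The orientation of the dyes rests on the sample titles and channel labels. The submitters' series value table follows it, with the sign of array 2 turned at all 45220 spots. The series' design text, by contrast, gives the same orientation for both arrays. If that text were right, the pool difference would lie in the dye component, mixed with the dye. With the sign of array 2 not turned, a setting chosen after seeing the data, 0 of the 8 genes passed the size rule, beside 64 of 11121 genes, or 0.575%.

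**Figure D2:**
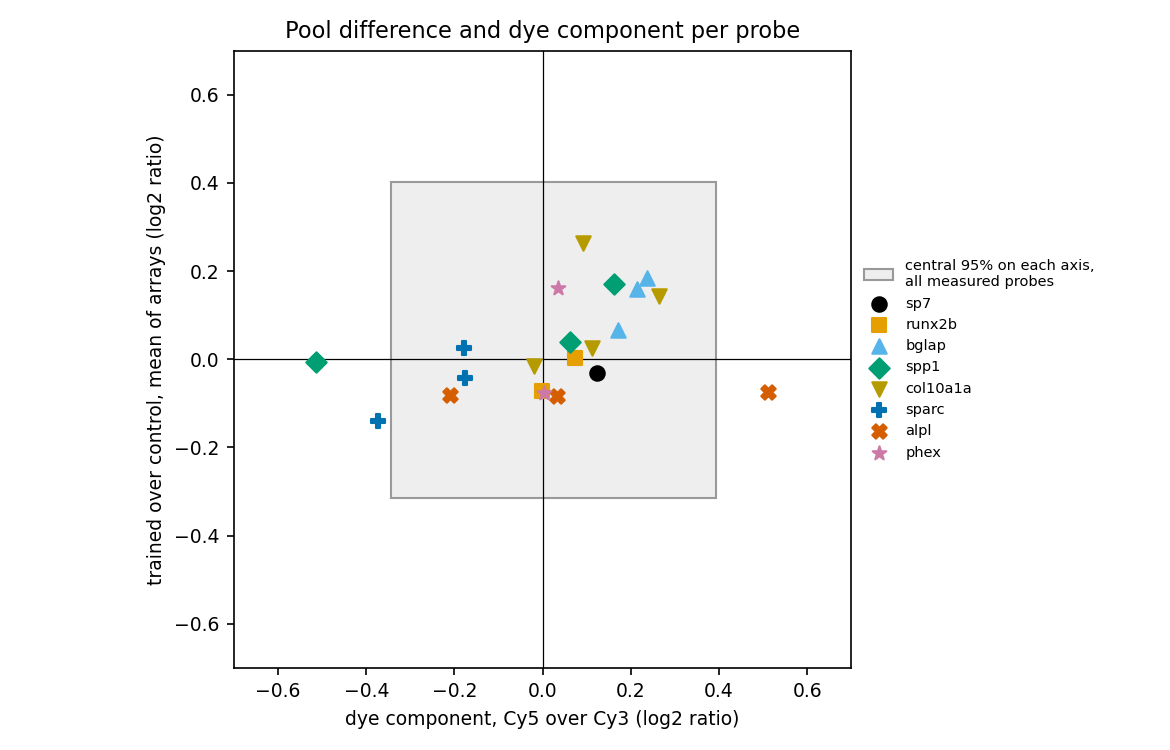
Mean trained over control log2 ratio (vertical axis) against the dye component as Cy5 over Cy3 log2 ratio (horizontal axis) for the 21 measured probes, 1 symbol for each gene. The grey box spans the central 95% of all measured probes on each axis, -0.31 to 0.40 and -0.34 to 0.39. The probes spread along the horizontal axis, with single probes of spp1, sparc and alpl outside the box at dye components of -0.51, -0.37 and 0.51, and none leaves it on the vertical axis.

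Several probes of a gene give separate readings of the same pools. Over the 7 genes with at least 2 measured probes, the median distance between the lowest and highest probe was 0.17 for the mean ratio and 0.20 for the dye component. Over 6037 genes with 2 or more measured probes it was 0.15 and 0.21. The distance in the mean ratio ran from 0.01 for alpl to 0.28 for col10a1a, and in the dye component from 0.03 for phex to 0.72 for alpl. The mean ratios of the 8 genes were at most 0.16 in size, below the median distance of 0.17 over the 7 genes. That of bglap, at 0.16, was above the median distance of 0.15 over the 6037 genes. The 3 bglap probes themselves lay 0.12 apart, with means of 0.07 to 0.18, although each was opposite on the arrays. A distance between probes is not an error of a mean ratio.

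The authors' deposited table of each scan also gives an error of each log ratio, from the error model of Feature Extraction. On the log2 scale it was 0.20 to 0.24 on array 1 and 0.20 to 0.25 on array 2 for the 21 probes in the authors' deposited table. The deposited ratio exceeded its error for 11 probes on array 1 and 8 on array 2, and for 7 probes on both. In all 7 the direction was opposite on the arrays, so for 0 of the 21 probes did both arrays exceed the error in 1 direction. These counts were not made over all measured probes, so whether they are particular to these genes was not tested.

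Over the 9 alternative ways of processing run on both arrays, none of the measured genes passed the size rule, although several of these alternatives left the same probe values in place. The signs were less stable than the sizes. The ratio of bglap was above 0 in all 9, at 0.07 to 0.22, and that of alpl below 0 in all 9, at -0.09 to -0.02. The ratio of sp7 ran from -0.18 to 0.01, that of phex from -0.12 to 0.04 and that of sparc from -0.05 to 0.11. For runx2b, spp1 and col10a1a the sign of the main setting was kept in 5 of the 9 each. All these counts of sign include the alternatives that left the probe values in place, where the sign could not change.

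**Figure D3:**
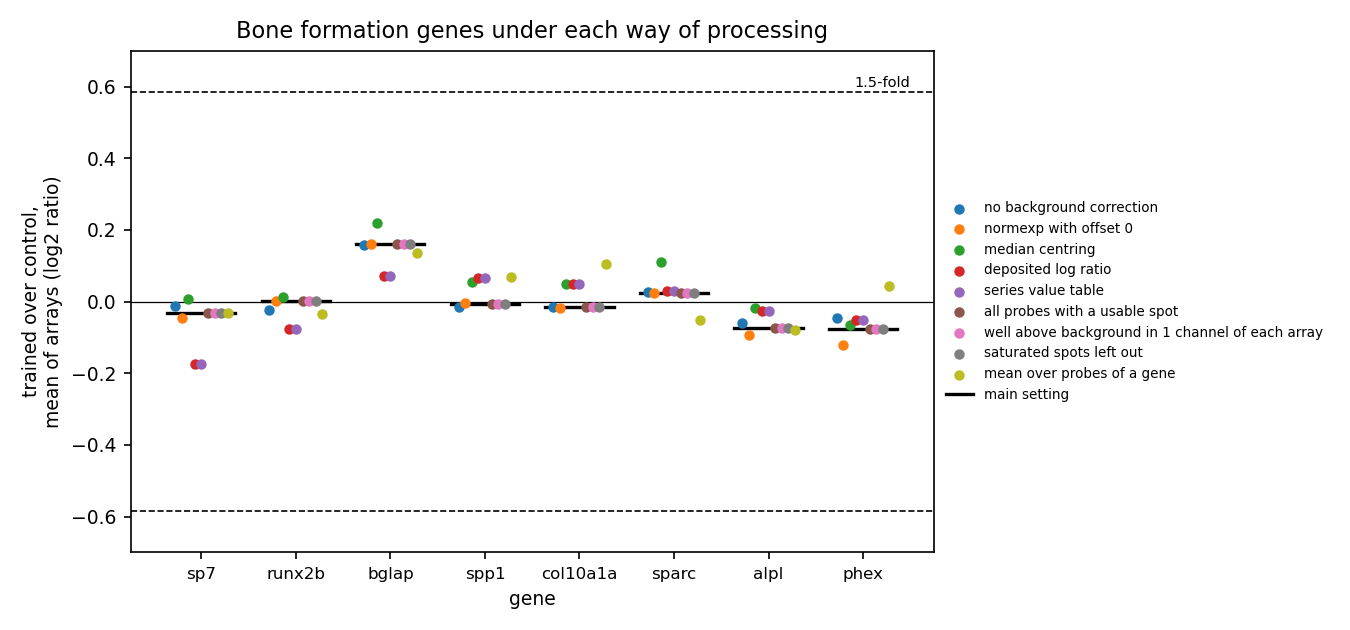
Mean trained over control log2 ratio of the 8 measured genes in the main setting (black bars) and under 9 alternatives (coloured points), with 1.5-fold as dashed lines. No point passes -0.18 or 0.22. The series value table repeats the deposited ratios.

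Other genes of the pathway were read from 4 lists. Of 25 further osteoblast regulators 23 were measured, with 6 higher on both arrays, 4 lower and 13 opposite, and a median ratio of 0.06. The shares over all genes were 24.3%, 22.1% and 53.6%. The highest were msx2b, a homeobox factor of skull development, at 0.26 and 0.31, and twist2, which in mice restrains Runx2, at 0.37 and 0.18. The lowest among genes of 1 sign on both arrays, ranked by the smaller ratio, were atf4a and msx2a. The atf4a gene, a stress-responsive factor that in mice drives late osteoblast genes, stood at -0.32 and -0.46. The msx2a gene stood at -0.06 and -0.19. Second probes had means of 0.04 for atf4a, against -0.39 for its brightest, and of 0.00 for msx2a, against -0.13. None passed the size rule.

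Of 44 genes of signalling to bone 35 were measured, with 8 higher, 6 lower and 21 opposite, and a median of 0.00, near the shares over all genes of 24.3%, 22.1% and 53.6%. The BMP antagonist nog2 stood at 0.38 and 0.20 and the FGF receptor fgfr4 at 0.19 and 0.27, but a second probe of each was below 0, at -0.02 and -0.06. The growth factor gene tgfb1a stood at -0.50 and -0.24 and the BMP receptor bmpr2a at -0.35 and -0.33. A second probe stood at -0.17 for tgfb1a and at 0.06 for bmpr2a. None passed the size rule.

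For bone matrix and collagen processing more genes were lower than higher. Of 48 genes 32 were measured, with 2 higher on both arrays, 13 lower and 17 opposite, beside 24.3% higher and 22.1% lower over all genes. Its median stood at -0.10, from -0.04 on array 1 and -0.14 on array 2, and none passed the size rule. The collagen gene col11a1a stood at -0.50 and -0.27, and serpinh1b, the collagen chaperone Hsp47, at -0.25 and -0.46. Other probes of serpinh1b both stood at -0.22, while those of col11a1a ran from -0.34 to 0.01. The higher genes were ifitm5, an osteoblast membrane protein that in humans is mutated in brittle bone disease, at 0.17 and 0.43, and the type I collagen gene col1a1a at 0.04 and 0.09. The other 3 col1a1a probes had means of -0.32 to 0.00, and the mean over its probes was -0.06.

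Of 45 genes of mineral and phosphate handling 28 were measured, with 13 higher, 4 lower and 11 opposite, and a median of 0.10. The shares over all genes were 24.3% higher, 22.1% lower and 0.692% past the size rule. With the dyes as labelled, only this list of the 4 had genes past the rule. These were ahsg1 and ahsg2, which encode fetuin plasma proteins made mainly in liver and known in mammals to keep calcium phosphate in solution. The ratios of ahsg1 were 1.01 and 0.97, or 1.98-fold higher in the trained pool, with its other probes at 0.77 and 0.93. Those of ahsg2 were 0.67 and 1.00, or 1.78-fold, with its other probes at 0.70 and 0.93. The lowest were alpi.2, an intestinal alkaline phosphatase, at -0.29 and -0.51, and the phosphate carrier slc20a1a at -0.19 and -0.24. Their second probes stood at -0.10 and -0.06. Not turning the sign of array 2 goes against the labels and the series value table. In that setting ahsg1 and ahsg2 had means of 0.02 and -0.17 and did not pass. The genes past the rule in the 4 lists were then grem1a, a BMP antagonist, and fgfr1a, an FGF receptor, both of the signalling list, with means of 0.92 and 0.69.

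**Figure D4:**
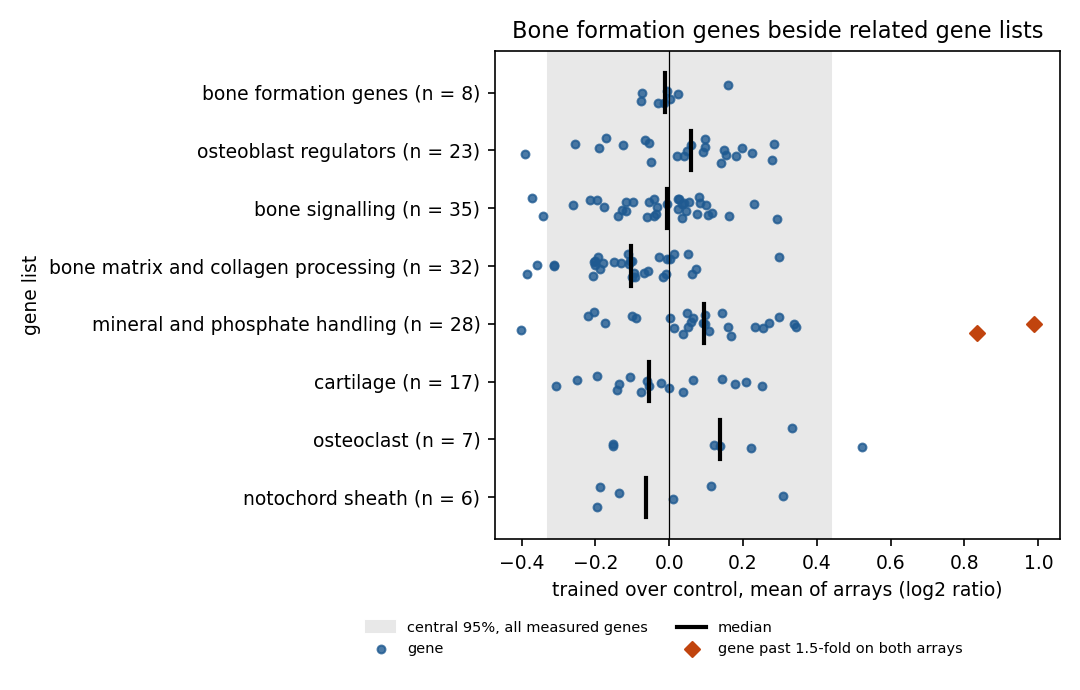
Mean trained over control log2 ratio of each measured gene (points) in the bone formation genes, 4 pathway lists and 3 lists of neighbouring cell types, with the median as a bar and the central 95% of all measured genes, -0.33 to 0.44, in grey. The bone formation genes lie between -0.08 and 0.16, and the diamonds at 0.99 and 0.83 are ahsg1 and ahsg2.

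Markers of neighbouring cell types were read as well, because type X collagen, osteopontin and osteonectin are not made by osteoblasts alone. Their counts stand beside 24.3% higher, 22.1% lower and 53.6% opposite over all genes. Of 25 cartilage genes 17 were measured, with 1 higher on both arrays, 5 lower and 11 opposite, and a median of -0.06. Of 16 osteoclast genes 7 were measured, with 2 higher, 2 lower and 3 opposite, and a median of 0.14, at 0.25 on array 1 and -0.04 on array 2. Of 7 notochord genes 6 were measured, with 2 higher, 2 lower and 2 opposite, and a median of -0.06. Among these, col9a1a, which was lower, and cnmd, which was opposite, are also counted in the cartilage list. None of the marker genes passed the size rule, and their part in the values of the bone formation genes was not tested.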

How the data were processed

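Per the file headers, each scanner file holds the deposited median intensity of every spot and its background in both channels, with processed signals, flags and log10 ratios of Cy5 over Cy3. Per the submitters' processing notes the authors used Agilent Feature Extraction 10.5.1.1. The series value table holds the same deposited log10 ratios as trained over control, which held for all 45220 spots within 0.001 on the log2 scale. Also used were the deposited processed signals, the error of each log ratio and the flags.

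Ratios were rebuilt with limma 3.58.1 in R 4.3.3, with normexp background correction at an offset of 50, loess within each array, and control and outlier spots at weight 0. After turning the sign of array 2, ratios were averaged over a probe's spots and then over both arrays. Of 43600 probes with a usable spot 30886 were measured. No spot was saturated. Median spot signals were 136 to 178.5 over backgrounds of 24 to 82.5. The number of arrays limits the precision of the ratios between these pools. With 1 pool per condition, the spread between fish is not known.

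Accessions of 25171 probes matched a RefSeq gene table of assembly GRCz12tu, and 18429 probes stayed unnamed. Coordinates were not used, because the array's design build (danRer6, per the file headers) differs. List symbols were updated through synonyms of that table. Named list genes were the 2 highest and the 2 lowest of 1 sign on both arrays, ranked by the smaller ratio, and all past 1.5-fold. The normalisation and size rule were run on simulated arrays, with changes larger than 1.5-fold and a spot noise not estimated from these arrays. This run does not give the error rates of the rule in these data. Tables were made with Python 3.11.15, numpy 2.4.6 and pandas 2.3.3. The genes and lists were chosen with earlier results of these data known. Alternatives are given in the closing section.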

Additional observations from a re-analysis of the deposited data

How the results depend on the processing

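With 1 pool per condition the alternatives show processing, not spread between fish. Each ratio pairs the trained and control pools on 1 array, but no test over pairs was possible, because the arrays repeat the same pools. The number of bone formation genes past the size rule was 0 under each of the 9 alternatives run on both arrays. It was also 0 at thresholds of 1.2-fold and 2-fold. The share of all measured genes at these 2 thresholds was not computed, so whether that count is particular to these genes was not tested. On single arrays the number was 0 to 1, where alpl stood at -0.59 on array 2. The number of bone formation genes with 1 sign on both arrays was 1 in the main setting and 0 without background correction. It was 2 under median centring (bglap and phex), the deposited log ratios and the series value table (sp7 and runx2b), and all usable probes (runx2a and phex). That runx2a probe was well above background in only 1 channel. With the probes of a gene averaged the number was 1, again phex, but higher on both arrays, at 0.06 and 0.02. The share of all measured genes with 1 sign was not computed under these alternatives. On single arrays the median of osteoblast regulators ran from -0.050 to 0.099 and that of mineral and phosphate handling from 0.057 to 0.089. The genes lower past the size rule numbered 6, but 3 under median centring and 15 under the deposited ratios, and single arrays gave 234 to 299 higher and 199 to 231 lower. The matrix list stayed below 0 in all 9 alternatives, at -0.12 to -0.04, ahsg1 stood at 0.90 to 1.14 and ahsg2 at 0.73 to 0.90. With the sign of array 2 not turned, a setting chosen after seeing the data, 7 bone formation genes had 1 sign. Not turning it gives 1 sign to genes that were opposite in the main setting, which were 53.6% of all measured genes. The matrix and mineral lists then stood at 0.071 and 0.017 and ahsg2 at -0.17. Over all measured genes, 1 was lower past the size rule. The causes of these shifts were not tested. Leaving saturated spots out changed nothing, because none was saturated.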

Other observations

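Type I collagen, the main protein of bone matrix and also of skin and tendon, was read by several probes, and these genes were picked with their values known. The brightest col1a2 probe stood at -0.18 and -0.12 on the arrays, and its other probes had means of -0.42 to -0.17. The brightest col1a1b probe was opposite on the arrays, at 0.10 and -0.46, and its other probes had means of -0.23 to -0.11. For col1a1a the brightest probe had a mean of 0.06 and the other 3 ran from -0.32 to 0.00. None was past 1.5-fold on both arrays.

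Further genes picked with their values known concerned resorption and pyrophosphate. The tartrate-resistant acid phosphatase gene acp5b, an osteoclast enzyme, stood at 0.50 and 0.54, or 1.44-fold higher in the trained pool, and the osteoclast protease gene ctsk at 0.25 and 0.42. The csf1ra gene, a receptor of the osteoclast and macrophage lineage, stood at -0.15 and -0.16, and the integrin gene itgb3a at -0.18 and -0.12. The other 3 measured osteoclast genes, acp5a, mmp9 and tcirg1b, were opposite on the arrays. The pyrophosphate transport genes ankha and ankhb stood at 0.36 and 0.32 and at 0.16 and 0.52, and a second ankha probe had a mean of 0.11. The pyrophosphate-producing enzyme gene enpp1 was opposite on the arrays, at -0.39 and 0.04. None of these passed the size rule.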
